A study of Mus musculus with 9 samples.

Results

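Genes of endoplasmic reticulum stress and protein folding were examined in the striatum of R6/2 mice, a transgenic model of Huntington disease. The list held 40 genes, and each was read from 1 probe set, the brightest on average of those annotated to that gene alone. In all, 39 of the 40 were measured, out of 18193 genes on the array. The missing one was Sec61g, a small subunit of the protein-conducting channel, whose probe set was annotated to 3 genes.

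Striatal total RNA of 9 female mice was hybridised, 1 array per mouse. The 4 wild-type mice (numbers 46, 47, 49 and 66) and the 5 R6/2 mice (numbers R62_86, R62_95, R62_105, R62_107, R62_109) shared a C57Bl/6 / CBA background and an age of 12 weeks. The R6/2 transgene is the first exon of human huntingtin with a lengthened CAG repeat, so these mice model a fragment of the mutant protein rather than the whole. In days, all wild-type mice and R62_86 were 85 days old and the other R6/2 mice were 83 days old.

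Secretory and membrane proteins enter the endoplasmic reticulum through the Sec61 translocon and fold there with the help of chaperones, lectins and disulfide isomerases. When unfolded proteins accumulate, the sensors IRE1 (Ern1), PERK (Eif2ak3) and ATF6 start the unfolded protein response, which raises chaperones and slows translation. Proteins that fail to fold are recognised by mannosidase-like lectins, moved back to the cytosol through a membrane complex of derlins, SEL1L and the ligase HRD1 (Syvn1), and degraded by the proteasome. Mutant huntingtin is itself a cytosolic and nuclear protein, and stress of this compartment has been studied in Huntington disease models.

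Expression values were log2 values of the RMA method, so a difference of 1 is a doubling, and each difference below is R6/2 minus wild-type. The arrays correlated at 0.979 to 0.995 over all probe sets. The markers of spiny projection neurons, the main striatal neurons, were present in every mouse, and all 10 measured ones were lower in R6/2, with a mean level of 11.73 to 12.07 in wild-type mice and 9.62 to 10.59 in R6/2. Of 10 measured markers of cortical projection neurons, 4 were higher and 1 lower, and their mean ran from 5.91 to 7.06 in wild-type and from 6.77 to 7.73 in R6/2. The mean of 9 choroid plexus and ependymal markers was 8.28 in wild-type 47 and 8.51 in wild-type 66, against 5.15 to 7.07 in the other 7 mice, and none passed the test. Microglial markers averaged 7.67 to 8.16 in wild-type mice and 7.17 to 7.62 in R6/2, with 4 of 11 lower, and 5 of 10 astrocyte markers were lower. In such whole-tissue RNA, fewer cells of a type and less RNA per cell cannot be told apart.

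The endoplasmic reticulum genes moved in both directions and by modest amounts. The stress sensor gene Atf6, its activating protease gene Mbtps1, the stress-induced genes Ddit3, Trib3 and Sdf2l1, and the derlin gene Derl3 were lower in R6/2 striatum. Higher were Herpud1, Edem1 and Derl1, 3 genes of endoplasmic reticulum-associated degradation, to which Derl3 also belongs. Herpud1 is itself a stress-induced gene. Genes that the response induces are not all labelled as such here, so no count of them by direction is given. Past an adjusted p of 0.05 in limma, 9 of 39 genes differed (23.1%), against 16.9% of all 18193 genes tested. The 3 that were higher made up 7.69% of the list, against 9.28% of all genes, and the 6 that were lower made up 15.4%, against 7.57%. Of those lower, Sdf2l1, Trib3 and Derl3 were dim, at means of 5.80, 5.01 and 5.21, against a median of 6.54 over all genes. A fit of the brighter 50% of genes left these out. It gave 5 higher and 3 lower of 33 genes of the list, against 1624 and 1086 of all 9096. The median difference of the 39 genes was -0.03, and that of all genes was -0.02. Differences ranged from -0.68 to 0.40, and 37 of the 39 were smaller than 0.5 in size.

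The 2 groups of mice did not overlap at 9 of the 39 genes (23.1%), against 17.3% of all genes. Of these, 8 also passed the test, and the other was Edem2, while Derl1 passed although its groups overlapped. Spread within a genotype was close to that of other genes, with a median SD over the 39 genes of 0.13 in wild-type mice and 0.12 in R6/2, against 0.13 and 0.11 over all genes. Wild-type 49 had the highest wild-type value at 21 of the 39 genes, and R62_95 the lowest R6/2 value at 14. Without wild-type 49 the list held 5 higher genes in place of 3, and without R62_95 it held 7. Over all 18193 genes, 1688 were higher with every mouse, 1699 without wild-type 49 and 1598 without R62_95. The split of calls into higher and lower depended on the scaling when housekeeping genes were used. Quantile normalization gave 3 higher and 6 lower genes of the list (53.7% of all calls higher). Centring on the array median gave 2 and 6 (47.9%). All genes past the threshold were 55.1% higher with the deposited scaling, and 14.55% higher after centring each array on 5 housekeeping genes, of which Hprt and Pgk1 were themselves past the threshold. That centring shifted the median over all genes from -0.02 to -0.16. The list then held 0 higher and 10 lower genes in limma, against 503 higher and 2954 lower of all 18193 genes. An unadjusted p below 0.05 was reached by 16 of the 39, against 7348 of all genes.

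**Figure D1:**
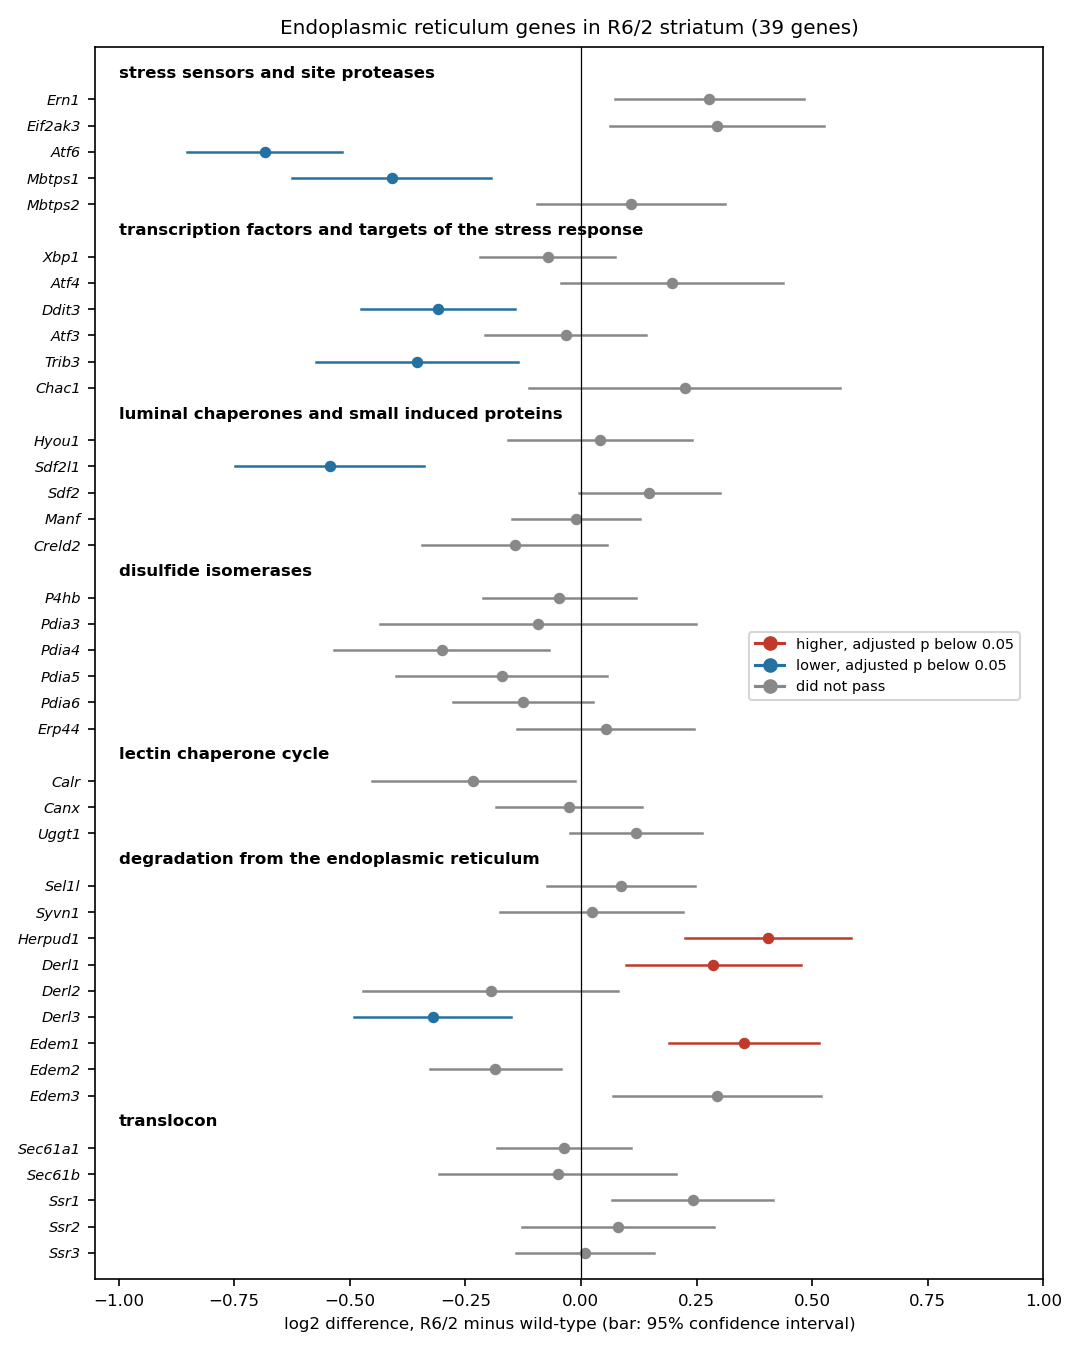
Log2 difference, R6/2 minus wild-type, of the 39 measured endoplasmic reticulum genes, grouped by role, with 95% confidence intervals from limma over 4 wild-type and 5 R6/2 mice. The genes past the threshold are coloured. Of these, 6 lie to the left of 0 and 3 to the right, and the latter all belong to the degradation machinery, as does Derl3 on the left.

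Some of the list's genes carry, near their start, sequence elements by which the unfolded protein response is known to act. A few of these are shown, and the changes of their genes are given below. The ER stress response element ERSE, bound by ATF6 together with NF-Y, was searched as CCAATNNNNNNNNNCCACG, and the related ERSE-II as ATTGG and CCACG with 1 base between them. TGACGTGG, the core of the element bound by XBP1 and ATF6, and TGATGNAA, the CARE bound by ATF4 and its partners, were searched too. All were searched on both strands of RefSeq windows (build GRCm38.p6) from 250 bases before to 50 bases after each start. The letters overlap between motifs, because ATTGG is CCAAT read on the other strand and CGTGG is CCACG read so. A window was given for 34 of the 40 genes, and Atf6, Derl1, Hyou1, Manf, Sec61a1 and Ssr2 had none. Those shown are printed 5′ to 3′ on the gene's strand, with the motif's fixed bases in capitals, on chr8:94386313-94386392 (plus strand) for Herpud1, chr10:75893212-75893291 (plus) for Derl3, chr8:84847044-84847123 (minus) for Calr, chr19:6046496-6046575 (plus) for Syvn1, chr2:34771995-34772074 (plus) for Hspa5 and chr10:86705533-86705656 (minus) for Hsp90b1.
Herpud1: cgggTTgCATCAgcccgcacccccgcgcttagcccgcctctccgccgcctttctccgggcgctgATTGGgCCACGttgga
Derl3: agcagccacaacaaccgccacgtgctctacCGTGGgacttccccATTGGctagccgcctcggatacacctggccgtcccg
Calr: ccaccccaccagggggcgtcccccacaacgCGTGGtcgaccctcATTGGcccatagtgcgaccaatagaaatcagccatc
Syvn1: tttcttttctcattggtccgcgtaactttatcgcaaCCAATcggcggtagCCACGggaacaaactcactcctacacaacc
Hspa5: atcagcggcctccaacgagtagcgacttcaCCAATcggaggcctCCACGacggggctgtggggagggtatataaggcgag
Hsp90b1: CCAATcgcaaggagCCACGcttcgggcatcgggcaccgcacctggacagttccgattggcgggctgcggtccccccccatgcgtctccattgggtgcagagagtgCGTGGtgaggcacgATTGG

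ERSE was found in the windows of 6 of 34 genes of the list (Calr, Canx, Creld2, Derl3, Pdia6 and Syvn1), against 0.137% of all 27025 genes with a window. By window, the share was 0.119% of all 32851. Of these 6 genes, Derl3 passed the test, with a difference of -0.32, and the other 5 lay between -0.23 and 0.02. ERSE-II was found in 12 windows in all (0.0365%), among them that of Herpud1, where it lay 52 to 42 bases before the start. Herpud1, with a difference of 0.40, also held a CARE that began 112 bases before the start. A CARE was found in 4.51% of all genes with a window and in 4 of the 34 (Atf3, Chac1, Herpud1 and Trib3). The core TGACGTGG was found in 0.714% of all genes with a window and in 0 of the 34. Outside the list, the 2 leading chaperone genes of the compartment both carry ERSE, Hspa5 once and Hsp90b1 on both strands. Their differences were 0.18 and -0.34. A match describes the letters of the window and was not set against any measure of binding.

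**Figure D2:**
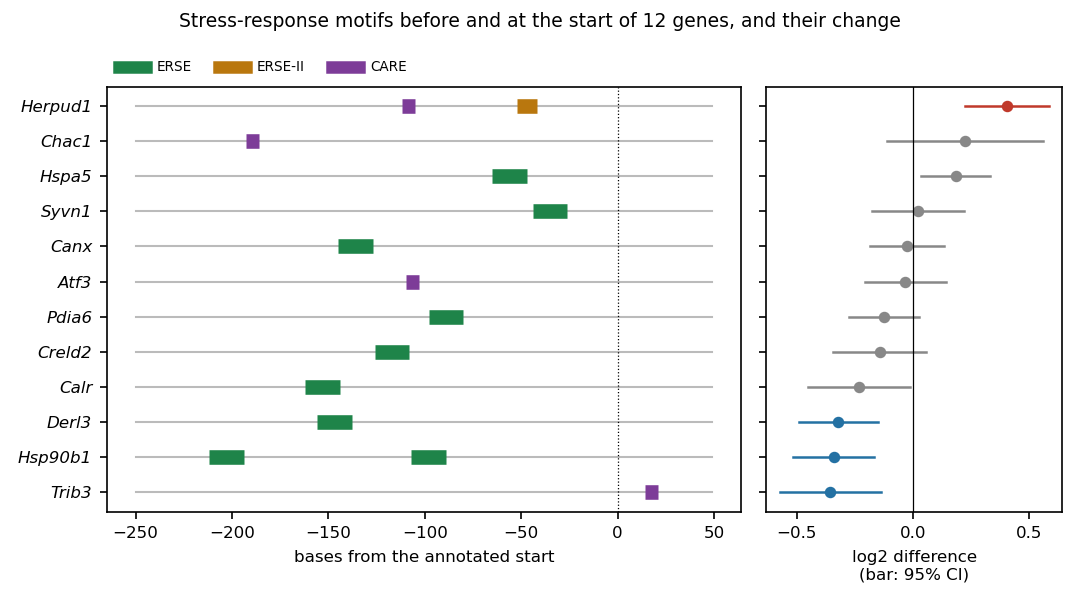
Left, positions of ERSE, ERSE-II and CARE matches in bases from the annotated start, in the windows of 10 genes of the list and of Hspa5 and Hsp90b1. Right, the log2 difference of each gene, R6/2 minus wild-type, with its 95% confidence interval; among genes with ERSE, Derl3 and Hsp90b1 were lower, and Herpud1 with ERSE-II was higher.

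Among the sensors, Atf6 was lower in R6/2 and the genes of the other 2 sensors were not called. Atf6 encodes a membrane-bound transcription factor that is cut in the Golgi apparatus under stress, and lies at chr1:170704457-170868585 (RefSeq gene span, GRCm38.p6, as for the spans below). It measured 8.54, 8.52, 8.79 and 8.66 in wild-type 46, 47, 49 and 66, and 7.87, 7.94, 8.10, 7.90 and 7.91 in R62_86, R62_95, R62_105, R62_107 and R62_109, an order kept for the genes that follow. Every R6/2 mouse was below every wild-type mouse, and R62_105 was the highest of its group. The difference was -0.68 ± 0.08 (SE), on the log2 scale, as the level fell by 37.7%, with an adjusted p of 0.00036 in limma. All 3 Atf6 probe sets lay below 0, at -0.68, -0.47 and -0.44, and the first 2 passed when all probe sets were tested.

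Ern1 encodes the kinase and endoribonuclease that splices Xbp1 mRNA. It measured 6.30, 6.52, 6.28 and 6.54 in wild-type mice and 6.93, 6.54, 6.67, 6.63 and 6.64 in R6/2. The groups touched at wild-type 66 and R62_95, and the difference of 0.28 ± 0.09 had an adjusted p of 0.0645. That difference is of 1 of 5 Ern1 probe sets, and the 4 dimmer ones lay below 0, at -0.19, -0.17, -0.05 and -0.01, with none past the threshold. Eif2ak3 encodes the kinase that slows translation by phosphorylating eIF2 alpha, and measured 7.79, 8.0, 7.60 and 7.85 in wild-type mice and 8.15, 7.79, 8.18, 8.23 and 8.16 in R6/2. All R6/2 mice but R62_95 were above the wild-type mice, with a difference of 0.29 ± 0.10 and an adjusted p of 0.0821, while its 2 dimmer probe sets gave -0.10 and 0.11. Without R62_95, both Ern1 and Eif2ak3 passed, at limma adjusted p values of 0.0478 and 0.0171. Leaving out any other single mouse gave no call for either gene, with adjusted p values up to 0.143 and 0.177.

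The 2 site proteases cut ATF6 in turn. Mbtps1, the site-1 protease gene (chr8:119508151-119558864), measured 9.09, 9.09, 8.96 and 9.47 in wild-type mice and 8.74, 8.80, 8.61, 8.83 and 8.73 in R6/2. The groups did not overlap, and wild-type 66 was the highest mouse. Mbtps1 was lower by -0.41 ± 0.10 on the log2 scale (adjusted p = 0.0166), and its 2 dimmer probe sets gave -0.63 and -0.22 without passing. Mbtps2, the site-2 protease gene, differed by 0.11 (adjusted p = 0.463), with a 95% interval of -0.10 to 0.31.

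Of the transcription factors and targets of the response, Ddit3 and Trib3 were lower, and the upstream factor Atf4 was not called. Ddit3 encodes CHOP, the factor that links prolonged stress to cell death (chr10:127290793-127296291). It measured 8.01, 8.20, 8.34 and 8.18 in wild-type mice and 7.86, 8.005, 7.83, 7.86 and 7.84 in R6/2. The groups were separated by a narrow gap, between wild-type 46 and R62_95. The difference was -0.31 ± 0.08 (adjusted p = 0.0184), and a second, dim Ddit3 probe set gave 0.03.

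Trib3 encodes a pseudokinase that CHOP and ATF4 induce (chr2:152337425-152344060). Its values were 5.14, 5.35, 5.19 and 5.14 in wild-type mice and 4.69, 5.14, 4.82, 4.67 and 4.94 in R6/2. R62_95 lay just under the lowest wild-type mice and the other R6/2 mice lay well below. Trib3 differed by -0.35 ± 0.10 (adjusted p = 0.0326), and its second probe set gave -0.34. The call was fragile to single mice, since it held without R62_95 (adjusted p = 0.00805) or R62_109 (0.0497) and was lost without any one of the other 7.

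Atf4, the factor translated when PERK is active, measured 9.78, 9.61, 9.96 and 9.56 in wild-type mice and 10.10, 10.00, 10.01, 9.66 and 9.85 in R6/2. The groups overlapped, and its difference was 0.20 (adjusted p = 0.247). Chac1, a glutathione-degrading enzyme gene downstream of ATF4, measured 6.62, 6.22, 6.67 and 6.01 in wild-type mice and 6.90, 6.44, 6.47, 6.41 and 6.79 in R6/2, a difference of 0.22 (adjusted p = 0.353). The groups overlapped there too. Atf3, another stress-induced factor, measured 4.49, 4.69, 4.49 and 4.49 in wild-type mice and 4.49, 4.61, 4.64, 4.40 and 4.38 in R6/2. Its values were dim and overlapped fully, with a difference of -0.03 (adjusted p = 0.814).

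Xbp1, whose mRNA IRE1 splices into the active form, measured 10.47, 10.35, 10.53 and 10.42 in wild-type mice and 10.42, 10.35, 10.30, 10.29 and 10.49 in R6/2. The groups overlapped, and the difference of -0.07 had a 95% interval of -0.22 to 0.07 (adjusted p = 0.497). Xbp1 was measured as a whole transcript, so the spliced form was not examined.

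**Figure D3:**
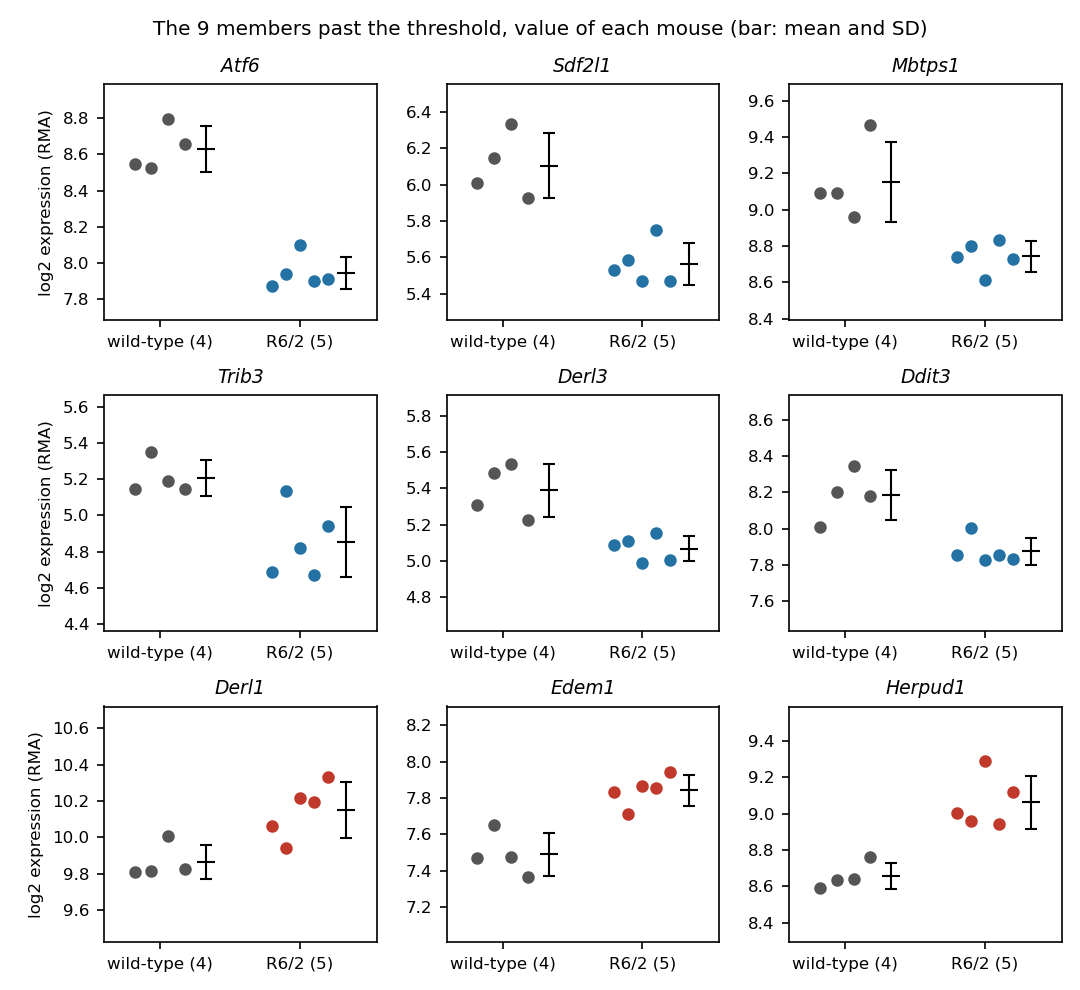
Log2 expression of each mouse for the 9 genes past the threshold, with 4 wild-type mice in grey, 5 R6/2 mice in blue (lower) or red (higher), and bars for mean and SD. Mice of each group are in the order of their numbers; the groups are apart for every gene but Derl1, where wild-type 49 at 10.01 lies above R62_95 at 9.94.

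Luminal chaperones and small induced proteins held 1 called gene of 5 (20%, against 16.9% of all genes). Sdf2l1, which helps the chaperone BiP and is a stress-induced relative of Sdf2, lies at chr16:17130138-17132383. It measured 6.01, 6.15, 6.33 and 5.93 in wild-type mice and 5.53, 5.58, 5.47, 5.75 and 5.47 in R6/2. Every R6/2 mouse was below every wild-type mouse, and the level fell by 31.4%, a log2 difference of -0.54 ± 0.09 (adjusted p = 0.0034). The other 4 genes did not pass. Hyou1, a large chaperone that acts as nucleotide exchange factor, differed by 0.04, Manf, a secreted stress-induced factor, by -0.01, Creld2, a stress-induced luminal protein, by -0.14 and Sdf2 by 0.15. For Manf, the 95% interval ran from -0.15 to 0.13, the narrowest of these 5.

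None of the 6 disulfide isomerase genes passed in limma, against 16.9% of all genes. An unadjusted p below 0.05 was reached by 1, Pdia4, against 5668 of all 18193 genes. Pdia4 measured 7.36, 7.52, 7.22 and 7.16 in wild-type mice and 7.15, 7.04, 6.99, 7.16 and 6.71 in R6/2. The groups met at wild-type 66 and R62_107, and the difference was -0.30 ± 0.11 (adjusted p = 0.0767). P4hb, the founding disulfide isomerase, differed by -0.05, Pdia5 by -0.17, Pdia6 by -0.13 and Erp44, which retrieves client proteins from the early secretory pathway, by 0.05. Pdia3, the isomerase that works with the lectin chaperones, differed by -0.09, and in that gene R62_95 stood at 9.59 against 10.22 to 10.48 in the other R6/2 mice. After housekeeping centring, Pdia4, Pdia5 and Pdia6 were among the genes called lower.

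None of the 3 genes of the lectin cycle passed in limma either, against 16.9% of all genes. An unadjusted p below 0.05 was reached by 1, Calr, against 5668 of all 18193 genes. Calreticulin (Calr), the soluble lectin chaperone, measured 11.30, 11.08, 11.40 and 11.44 in wild-type mice and 11.16, 11.29, 10.90, 11.08 and 10.94 in R6/2. The groups overlapped, and the difference was -0.23 (adjusted p = 0.139). Its membrane-bound relative calnexin (Canx) differed by -0.03, with a 95% interval of -0.18 to 0.13. Uggt1, the folding sensor that returns glycoproteins to these lectins, differed by 0.12 (adjusted p = 0.239).

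The degradation machinery, the largest group, held the most called genes, 4 of 9 (44.4%, against 16.9% of all genes). Of these, 3 were higher (33.3%, against 9.28%) and 1 was lower (11.1%, against 7.57%). The smaller group of sensors and proteases held 2 of 5 (40%). Herpud1, a stress-induced membrane protein that gathers the ligase complex (chr8:94386429-94395371), measured 8.59, 8.64, 8.64 and 8.76 in wild-type mice and 9.0, 8.96, 9.29, 8.94 and 9.12 in R6/2. Every R6/2 mouse was above every wild-type mouse, and R62_105 was the highest. The difference was 0.40 ± 0.08 (adjusted p = 0.00761), a level 32.4% higher, and a second probe set gave 0.26 without passing. With housekeeping centring, Herpud1 was at 0.26 and no longer passed.

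Edem1, a mannosidase-like lectin that marks glycoproteins for removal (chr6:108824045-108859356), measured 7.47, 7.65, 7.48 and 7.36 in wild-type mice and 7.83, 7.71, 7.87, 7.86 and 7.94 in R6/2. The groups did not overlap, with R62_95 closest to wild-type 47. Edem1 was higher by 0.35 ± 0.07 (adjusted p = 0.00896), whereas a dimmer probe set of the gene gave 0.04. The other 2 genes of this family were not called. Edem2 measured 7.41, 7.39, 7.56 and 7.32 in wild-type mice and 7.28, 7.21, 7.16, 7.25 and 7.28 in R6/2, so the groups were apart, at -0.18 ± 0.06 (adjusted p = 0.0767). Edem3 measured 8.50, 8.24, 8.54 and 8.30 in wild-type mice and 8.76, 8.40, 8.69, 8.73 and 8.88 in R6/2. R62_95 overlapped the wild-type mice, and the difference was 0.29 ± 0.10 (adjusted p = 0.0742), while a second Edem3 probe set gave 0.38 and passed when all probe sets were tested (adjusted p = 0.0302).

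The derlins, membrane proteins of the retrotranslocation channel, also differed among themselves. Derl1 (chr15:57869502-57892418) measured 9.81, 9.81, 10.01 and 9.83 in wild-type mice and 10.06, 9.94, 10.22, 10.20 and 10.33 in R6/2. Wild-type 49 lay above R62_95, and the difference was 0.29 ± 0.09 (adjusted p = 0.0435). In limma fits under 21 alternatives, Derl1 passed in 6, the fewest of the 9 genes. It passed without wild-type 49 (adjusted p = 0.0295) or R62_95 (0.0166) and was lost without any one of the other 7 mice, and its 3 dimmer probe sets gave 0.01, 0.10 and -0.15. Derl3, the derlin of highly secretory cells (chr10:75893398-75895941), measured 5.31, 5.49, 5.54 and 5.23 in wild-type mice and 5.09, 5.11, 4.99, 5.15 and 5.01 in R6/2. The groups did not overlap, and Derl3 was lower by -0.32 ± 0.08 (adjusted p = 0.0170), a call that was lost without wild-type 47 (adjusted p = 0.0531). Derl2 differed by -0.19 (adjusted p = 0.322), and wild-type 49 alone stood at 8.18 while the other 8 mice lay between 7.43 and 7.54. The genes of the core ligase complex did not pass, with Sel1l at 0.09 and Syvn1 at 0.02, and 95% intervals of -0.07 to 0.25 and -0.17 to 0.22.

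Of the 5 measured genes of the translocon and its associated complex, none passed in limma, against 16.9% of all genes. An unadjusted p below 0.05 was reached by 1, Ssr1, against 5668 of all 18193 genes. Sec61a1, the channel-forming subunit, differed by -0.04 (95% interval -0.18 to 0.11) and Sec61b, a small subunit, by -0.05. The translocon-associated genes Ssr1, Ssr2 and Ssr3 differed by 0.24, 0.08 and 0.01. Ssr1 measured 9.30, 9.44, 9.49 and 9.25 in wild-type mice and 9.55, 9.48, 9.57, 9.69 and 9.76 in R6/2. Its groups overlapped at wild-type 49 and R62_95 (adjusted p = 0.0596).

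In addition, 9 pairs of related genes were compared, as the log2 difference between the 2 genes within each mouse, which does not depend on a constant scaling of an array. The test was an exact permutation of the genotype labels, two-sided, with a smallest possible p of 0.00794, and p-values were adjusted over the 9 pairs. The pairs were measured in the same mice as the single genes and chosen with earlier results known, so these tests give the size of a difference within a pair and are no independent evidence for it. Of the 9, 5 passed. Sdf2l1 shifted by -0.69 against Sdf2 (adjusted p = 0.0238), with the R6/2 mice between -0.81 and -0.41 from the wild-type mean and the wild-type mice between -0.08 and 0.06. Edem1 shifted by 0.54 against Edem2 (adjusted p = 0.0238), and Edem2 by -0.48 against Edem3 (exact permutation, adjusted p = 0.0357). Edem1 against Edem3 gave a shift of 0.06 (adjusted p = 0.556), and these 3 pairs share genes.

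Derl1 shifted by 0.48 against Derl2 (exact permutation, adjusted p = 0.0238), but only by 0.09 (adjusted p = 0.551) when the probe sets of each gene were averaged. Wild-type 49 lay -0.34 from the wild-type mean in this pair, in which it carried the high Derl2 value. Of the protease genes, Mbtps1 shifted by -0.52 against Mbtps2 (adjusted p = 0.0429), although wild-type 49 overlapped the R6/2 mice and the pair missed the threshold after quantile normalization (adjusted p = 0.0714). The remaining pairs did not pass. Pdia3 against Pdia4 gave 0.21, Pdia6 against P4hb gave -0.08 and Calr against Canx gave -0.21.

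**Figure D4:**
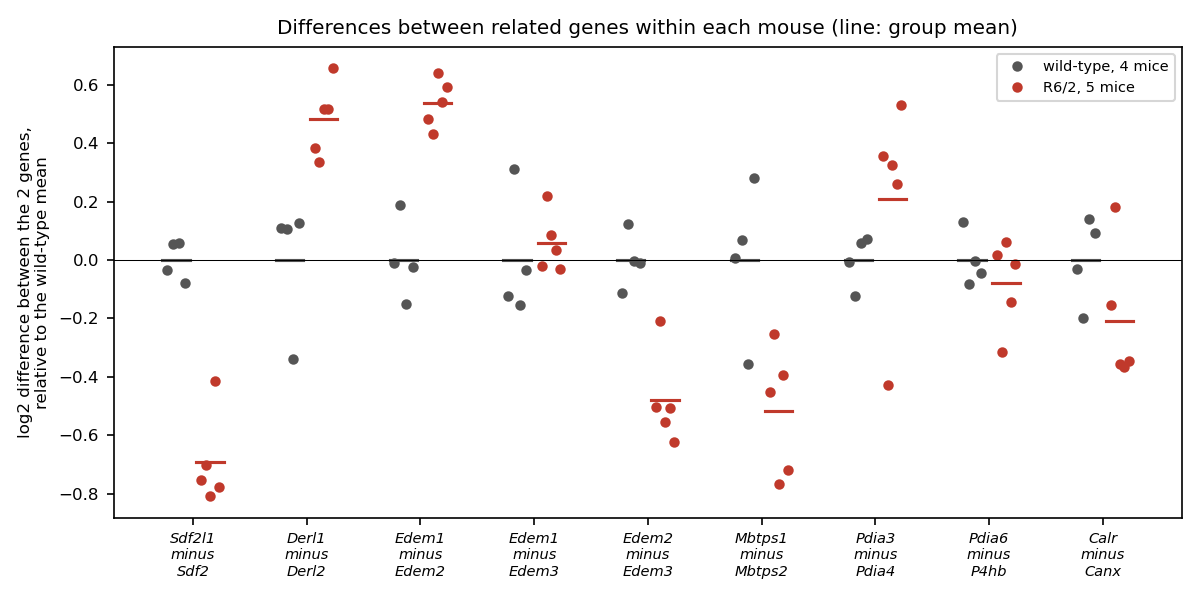
Log2 difference between 2 related genes within each mouse, relative to the wild-type mean of that pair, for 4 wild-type mice (grey) and 5 R6/2 mice (red), with lines at the group means. The groups are apart for Sdf2l1 minus Sdf2, Edem1 minus Edem2, Edem2 minus Edem3 and, with wild-type 49 at -0.34, Derl1 minus Derl2; the other pairs overlap.

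A further list of other genes of the same compartment and its response placed these values in context, 70 of 73 of them measured. There 19 passed (27.1%, against 16.9% of all genes), 10 higher (14.3%, against 9.28%) and 9 lower (12.9%, against 7.57%). Their median difference was 0.05. Hspa5 encodes BiP, the master chaperone whose release activates the sensors. It measured 10.98, 10.76, 10.86 and 10.97 in wild-type mice and 11.03, 11.18, 11.01, 11.07 and 11.09 in R6/2. The groups did not overlap, yet the difference of 0.18 ± 0.07 did not pass (adjusted p = 0.0883). Of the 3 Hspa5 probe sets, 2 lay above 0, the lowest was at -0.17, and none passed. Hsp90b1, which encodes the luminal Hsp90 GRP94, was lower by -0.34 ± 0.08 (adjusted p = 0.0137), with means of 10.84 in wild-type mice and 10.50 in R6/2.

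Among the other 8 measured chaperone genes of that list, Nucb2, a calcium-binding protein, was lower (-0.49), and Cdc37l1, a cytosolic partner of Hsp90, was higher (0.35). Of 9 redox genes, P4ha1, a subunit of collagen prolyl hydroxylase, was lower (-0.44), as was the dim Pdia2 (-0.34). Of 13 signalling genes, 4 passed (30.8%, against 16.9% of all genes). Dnajc2, a ribosome-associated cochaperone outside the reticulum, was lower by -0.67, and Bbc3, the cell death gene known as Puma, by -0.45. The membrane-bound factor genes Creb3l2 and Creb3l1 were at 0.46 and -0.29, the latter named after its value was seen. Creb3l2's groups touched at 6.62 and another of its probe sets gave 0.04. Creb3l1 was dim, at means of 5.34 in wild-type mice and 5.05 in R6/2. No probe set of either gene passed when all probe sets were tested. The 11 genes of glycan processing held 1 call (9.09%, against 16.9% of all genes), the Golgi mannosidase gene Man1a. Its difference was the largest of the 70 (-0.79 ± 0.10, limma adjusted p = 0.0006).

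Of 14 degradation genes outside the first list, 5 were higher (35.7%, against 9.28% of all genes) and 1 was lower. Vcp, the ATPase that pulls proteins out of the membrane, was higher by 0.40 ± 0.09 (adjusted p = 0.0103) and its cofactor gene Nploc4 by 0.34. Ube2g2, a ubiquitin-conjugating enzyme gene of the same pathway, was lower (-0.37). Of 13 genes of translocation and signal peptide removal, 3 were higher (23.1%, against 9.28% of all genes) and 0 lower. The 3 were Tram1 (0.51 ± 0.09), Sec61a2 (0.56 ± 0.11), a second form of the channel subunit, and Srprb (0.38 ± 0.10), which anchors the signal recognition particle receptor. With housekeeping centring these 70 genes split into 2 higher and 15 lower.

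Age could be held equal only through R62_86, the R6/2 mouse of the same age in days as the wild-type mice. In that mouse, Atf6 lay -0.75 from the wild-type mean, Sdf2l1 -0.57, Trib3 -0.52, Mbtps1 -0.41, Ddit3 -0.33 and Derl3 -0.30, and Herpud1 lay at 0.35, Edem1 at 0.34 and Derl1 at 0.20. Each of the 9 thus had the sign of its group in this single mouse. For all of them but Derl1 this had to be so, because R62_86 belongs to the R6/2 group and the groups did not overlap. The signs of these differences are therefore no separate check of age. A fit with age as a second term gave these same differences, because no wild-type mouse was 83 days old and the genotype term then compares R62_86 alone with the wild-type mice. That fit assumes that the lone mouse varies like the others, so only its differences are given here. Age and genotype cannot be told apart for the other R6/2 mice, and calls lost in that fit say nothing about stability.

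Fits with the cortical neuron, choroid plexus or spiny neuron marker score as a second term were made. The astrocyte and microglial scores, which were lower in every R6/2 mouse than in every wild-type mouse, were not used as terms, and their part in the results was not tested. With the cortical neuron score, 338 of all genes passed, and of the list Atf6 alone (-0.64, adjusted p = 0.0262). The other 8 genes kept their signs in that fit with larger standard errors. Sdf2l1 was at -0.43 ± 0.13, Trib3 at -0.39, Derl3 at -0.27, Herpud1 at 0.35, Derl1 at 0.27 and Edem1 at 0.26, while Mbtps1 was at -0.23 and Ddit3 at -0.19. With the choroid plexus score, Atf6, Sdf2l1, Derl3, Edem1 and Herpud1 passed. The spiny neuron score separated the genotypes completely, and with it 0 of all 18193 genes passed in limma, 1313 of them, and 1 of the 39, at an unadjusted p below 0.05. In that fit Atf6 was at -0.96, while Herpud1 was at -0.05 and Mbtps1 at 0.15, so genotype and the level of spiny neuron transcripts cannot be told apart for these genes.

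**Figure D5:**
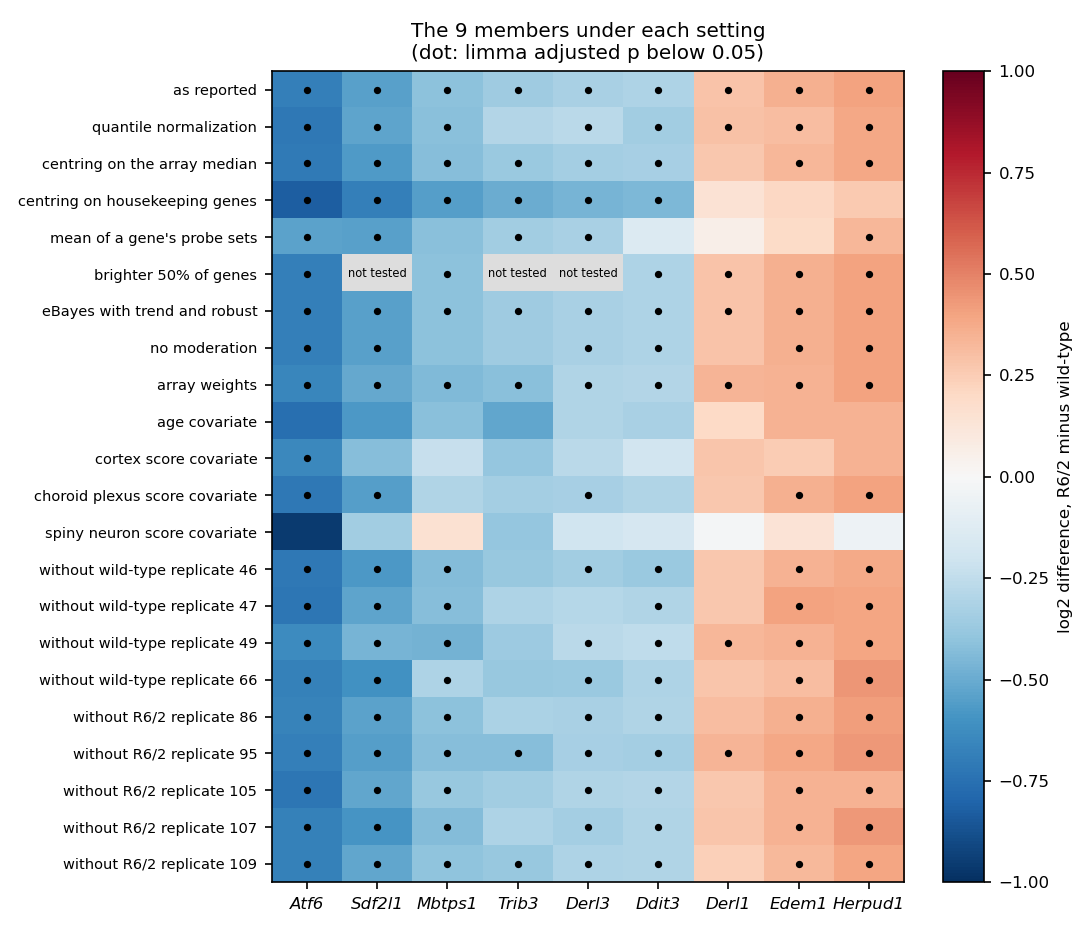
Log2 difference, R6/2 minus wild-type, of the 9 genes past the threshold as reported (top row) and under each alternative setting (rows), where a dot marks a limma adjusted p below 0.05 and grey cells were not tested. Atf6 has a dot in every row but those with age or the spiny neuron score as a second term; Herpud1, Derl1 and Mbtps1 change sign with the spiny neuron score.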

How the data were processed

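The authors deposited log2 expression values of 45101 probe sets on 9 arrays, made, per the submitters' processing notes, with RMA and affy. Their versions are not stated in the labels or file headers. RMA gives arrays a shared distribution, so a change in total RNA per cell is not seen. Biotin labelling used in vitro transcription, per the labels' protocols. Probe sets naming 1 gene (34945) were used, the brightest per gene, with no filter on dim ones. For arrays, their number limits the precision. The labels give 1 animal number per array, and no 2 arrays shared more than 3.93% identical values.

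Genotypes were compared with limma 3.58.1 (lmFit, eBayes) in R 4.3.3, two-sided, with Benjamini-Hochberg adjustment over 18193 genes and a threshold of 0.05. The code was tested on simulated data. The genes, lists and pairs were chosen with earlier results of these data known. The text names every gene of the list, gives each mouse's value for those past the threshold, the sensors and the stress factors and targets, and names of the other 70 genes Hspa5, Hsp90b1 and up to 3 per group with the smallest adjusted p past the threshold. Values of each mouse for Edem2, Edem3, Pdia4, Calr, Ssr1 and Hspa5 were added after the values were seen. Alternatives covered scaling, probe set choice, dim genes, moderation, array weights, covariates and leaving out each mouse.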

Additional observations from a re-analysis of the deposited data

Results flagged for a closer look

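Of 78 groups of mice (39 genes in 2 genotypes), 9 held a mouse far from the rest by Dixon's criterion, and of 18 groups for the gene pairs, 3 did. Chance alone gives about 1 in 20. The mice R62_95 and wild-type 49 recurred. R62_95 lay low for Eif2ak3 at 7.79 (others 8.15 to 8.23) and for Derl2 at 7.43 (others 7.51 to 7.53), and high for Ddit3 at 8.005 (others 7.83 to 7.86). In that mouse, Pdia3 minus Pdia4 was 2.55 (others 3.23 to 3.51). Wild-type 49 lay high for Derl1 at 10.01 (others 9.81 to 9.83) and for Derl2 at 8.18 (others 7.53 to 7.54), and its Derl1 minus Derl2 was 1.83 (others 2.28 to 2.30). R62_105 was high for Atf6 at 8.10 (others 7.87 to 7.94) and low for Sec61a1 at 8.88 (others 9.07 to 9.13). Wild-type 47 was high for Atf3 at 4.69, where the other 3 wild-type mice shared 4.49, and low for Creld2 at 7.21 (others 7.46 to 7.48). R62_107 had Sdf2l1 minus Sdf2 at -4.07 (others -4.46 to -4.35).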

How the results depend on the processing

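Atf6, Sdf2l1, Mbtps1, Ddit3, Herpud1 and Edem1 passed when any single mouse was left out. Leaving out 1 mouse gave 2 to 7 higher genes of the list (7 without R62_95, 5 without wild-type 49) and 4 to 6 lower, 6 to 11 higher of the other 70 (6 without wild-type 66), and Atf3 from -0.068 to 0.019. Over all 18193 genes these fits gave 1120 to 1699 higher and 1020 to 1386 lower. Housekeeping centring gave 0 higher and 10 lower of the list (median -0.17) and 2 and 15 of the other 70. The brighter 50% of genes, which left out Sdf2l1, Trib3 and Derl3, gave 5 and 3, and array weights 6 higher (2116 of all genes). Without moderation, 2006 of all genes passed. Age as a term, which compares R62_86 alone with wild-type, left 30 of all genes, 0 higher and 0 lower in either list, and a median of 0.038 for the 39. The cortical score left 338, with 0 higher and 1 lower of the list and 1 and 3 of the other 70, and Chac1 at -0.023. The choroid plexus score left 3 lower of the list and 6 higher of the other 70. The spiny neuron score left 0 in all, with Mbtps1 at 0.15, Atf4 at -0.22, Chac1 at -0.16, Herpud1 at -0.053 and Derl1 at -0.017. Averaging probe sets put Ern1 at -0.025, Edem1 minus Edem3 at -0.14 and Pdia6 minus P4hb at 0.011, and ended the calls of Ddit3 (-0.14), Mbtps1, Derl1 and Edem1. Quantile normalization put Atf3 at 0.026 and ended the call of Trib3 (adjusted p = 0.0526). The cause was not tested. Centring on the array median ended the call of Derl1, and fitting without moderation those of Mbtps1, Trib3 and Derl1. Pair tests with 1 mouse left out are limited by their smallest possible p. With an R6/2 mouse other than R62_95 left out no pair passed, and the calls lost there say nothing about stability. Without any 1 wild-type mouse, Sdf2l1 minus Sdf2, Derl1 minus Derl2, Edem1 minus Edem2 and Edem2 minus Edem3 passed. Mbtps1 minus Mbtps2 missed the threshold without wild-type 46 (exact permutation, adjusted p = 0.0964), 47 (0.0804) or 66 (0.129). No paired analysis was possible because no animal number occurs in both groups.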
